A study of Homo sapiens with 8 samples.

Results

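The lysyl oxidase family consists of LOX and the LOX-like genes LOXL1, LOXL2, LOXL3 and LOXL4. Its members were found by gene symbol: every probe whose transcript accession belongs to these genes in the RefSeq gene table was taken, with no measured value used in the choice. This gave 5 of the 22439 genes named on the array, read by 6 of 31104 named probes. LOX and LOXL2 were each read by 1 probe printed at 10 spots, LOXL1 and LOXL4 by 1 probe at 1 spot, and LOXL3 by 2 probes of different brightness at 1 spot each.

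The family encodes secreted, copper-dependent amine oxidases that convert lysine side chains of collagens and elastin into aldehydes, and these aldehydes then form the covalent crosslinks of the extracellular matrix. LOX and LOXL1 carry a propeptide that is removed outside the cell by BMP1-type proteinases. LOXL2, LOXL3 and LOXL4 carry scavenger receptor cysteine-rich domains in its place. In lung cancer and in fibrosis these enzymes are known for stiffening the matrix, and LOXL2 has also been linked to SNAI1, a repressor of the epithelial adhesion gene CDH1.

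The data came from 8 two-colour Agilent expression arrays on 1 slide, and on every array the treated or edited RNA was labelled with Cy5 (red) and the control RNA of the same cell line with Cy3 (green). EBC-1 and SK-MES-1, both lung squamous cell carcinoma lines, were each transfected with the microRNA miR-150-3p on 1 array. SBC-3, a small cell lung cancer line, received siRNAs against DONSON, a gene of DNA replication, on 3 arrays that carry the siRNA names siDONSON-1, siDONSON-2 and siDONSON-3. A549, a lung adenocarcinoma line, was hybridised on 3 arrays as edited lines A549-GE1, A549-GE2 and A549-GE3, in which CRISPR/Cas9 genome editing was directed at LOXL2. The control of the transfected lines is called mock in some labels and no transfection in others, and that of A549 had no genome editing. The dyes were never swapped, so a dye effect of a probe cannot be told apart from a change in expression. The labels give no guide, edited site or clonal status for the A549 lines, and nothing states that the arrays of a group came from separate cultures. P-values therefore measure a spread between arrays that may be technical. The 3 groups share it in the fit, so it includes differences between EBC-1 and SK-MES-1 and between the 3 siRNAs. For a gene not counted on some arrays, only the arrays with a value enter it. Fewer cells expressing a gene and less RNA per cell cannot be told apart in such bulk RNA.

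The proximal promoters of LOX, LOXL1 and LOXL4 are given here because LOX is the member whose response differed most between the transfected lines, and because hypoxia is its best-known inducer. The capitals mark the core of the hypoxia response element, written as ACGTG or GCGTG on either strand. Each line is the run of 250 bases before the transcription start in RefSeq on GRCh38.p14, 5′ to 3′ on the gene's strand, for LOX chr5:122078260-122078509 (minus strand, the first of 3 listed starts), LOXL1 chr15:73926212-73926461 (plus strand) and LOXL4 chr10:98268195-98268444 (minus strand).
LOX: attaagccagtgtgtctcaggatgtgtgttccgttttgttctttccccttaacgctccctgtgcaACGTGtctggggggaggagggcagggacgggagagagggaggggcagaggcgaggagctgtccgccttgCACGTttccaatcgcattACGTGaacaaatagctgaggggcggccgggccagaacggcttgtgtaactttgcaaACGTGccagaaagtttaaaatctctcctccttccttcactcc
LOXL1: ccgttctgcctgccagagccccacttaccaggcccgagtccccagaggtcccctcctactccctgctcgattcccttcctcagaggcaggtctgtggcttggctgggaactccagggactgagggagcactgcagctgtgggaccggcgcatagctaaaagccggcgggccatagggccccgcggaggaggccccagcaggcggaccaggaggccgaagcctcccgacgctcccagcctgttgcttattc
LOXL4: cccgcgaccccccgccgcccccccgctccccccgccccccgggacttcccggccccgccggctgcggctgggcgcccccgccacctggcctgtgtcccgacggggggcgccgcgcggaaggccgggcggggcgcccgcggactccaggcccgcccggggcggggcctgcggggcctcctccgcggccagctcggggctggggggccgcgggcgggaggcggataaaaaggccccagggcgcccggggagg
The LOX window held 4 such cores, while LOXL1 and LOXL4 held 0. For LOXL3, which is not printed, 1 of 2 listed windows held at least 1 core, and the first listed held 0. The promoter of LOXL2 was not among the sequences used here, so its cores were not counted. Over all 35114 promoter windows, 43.2% held at least 1 core and 3.22% held at least 4. The GC content was 55.2% for LOX, 66.8% for LOXL1 and 86.4% for LOXL4, and the TATA box letters TATAAA, which 10.7% of windows held on either strand, were in none of these 3. These are matches of letters in a window of sequence and not measurements of binding.

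Of 60901 non-control spots per array, 81 to 133 were left out as marked by the scanner software and 0 were saturated. Between 41.1% and 46.4% of spots were well above background in the green channel and between 48.5% and 56.2% in the red channel. A probe entered the analysis of an array where at least 1 channel was well above background, here called counted, and its value was the log2 of red over green, so that a positive value means higher in treated or edited cells. The median log2 ratio of an array lay between -0.17 and -0.11. Markers set the labelled tumour types apart only in part in the controls. Of 8 squamous markers, EBC-1 had 1 (SOX2) well above background and SK-MES-1 had 4, 5 of 9 neuroendocrine markers were so in SBC-3, and 6 of 9 glandular markers were so in A549, but also 6 in SK-MES-1 and 5 in EBC-1, with NKX2-1 in none. The summed signal of the squamous list was highest in SBC-3 (17258 to 19121, whereas EBC-1 had 284 and SK-MES-1 had 592). Only 2 of the 8 squamous markers, TP63 and SOX2, were well above background in SBC-3. The summed signal of the neuroendocrine list was higher in A549 (2385 to 2421) than in SBC-3 (1176 to 1262), although A549 had 3 of 9 well above background.

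The control cells of the 4 lines carried different sets of family members. LOXL2 was well above background in all 4 lines and was brightest in EBC-1, LOX was not detected in A549, LOXL1 was not detected in SBC-3, and LOXL4 was detected in SK-MES-1 and A549 only. LOXL3 was highest in SBC-3, the line in which LOXL2 was lowest. Levels are given as log2 green signal minus the 75th percentile of the array, for 1 probe at a time, because brightness cannot be compared between probes.

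The LOX probe had a green signal of 1341 in SK-MES-1, 734 in EBC-1 and 399, 352 and 375 on the 3 SBC-3 arrays. In A549 it read 6.08, 5.74 and 5.50, and no spot was well above background. The levels were thus 2.19 in SK-MES-1, 1.25 in EBC-1 and 0.27 ± 0.01 (SD, n = 3 arrays) in SBC-3. Against A549, LOX was at least 12.7-fold higher in SBC-3, at least 23.4-fold higher in EBC-1 and at least 47.9-fold higher in SK-MES-1. These bounds, like those below, set the undetected probe at the lowest signal well above background. They were taken after quantile normalisation of average intensities between arrays, not on the level scale. They hold for the software's background correction only.

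LOXL1, which acts mainly on elastic fibres, had a green signal of 2167 in SK-MES-1, 210.4 in EBC-1 and 35.6, 36.7 and 44.8 in A549. Its level was 2.88 in SK-MES-1, 10.8-fold above EBC-1 (-0.55), and -3.01 ± 0.15 (SD, n = 3 arrays) in A549. On the SBC-3 arrays the signal of 11.04 to 19.8 was not well above background, and A549 was at least 1.14-fold higher. Of the 4 lines, SK-MES-1 thus had the highest LOXL1 signal, and A549 was close to the detection limit. Fibroblast markers were also highest in SK-MES-1, where 4 of 7 (PDGFRA, PDGFRB, THY1 and FAP) were well above background against 1 in EBC-1, 0 in SBC-3 and 2 in A549, while DCN, LUM and COL6A3 were detected in no control. Their summed green signal was 887 in SK-MES-1, 149 in EBC-1, 114 to 153 in SBC-3 and 580 to 640 in A549, and their part in the LOXL1 level was not tested.

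LOXL2 had by far the brightest family probe, with a green signal of 17150.1 in EBC-1, 9794, 9793 and 10140.4 in A549, 6441 in SK-MES-1 and 1403, 1274 and 1330.0 in SBC-3. The levels were 5.80 in EBC-1, 4.99 ± 0.0015 (SD, n = 3 arrays) in A549, 4.45 in SK-MES-1 and 2.10 ± 0.01 (SD, n = 3 arrays) in SBC-3. EBC-1 was 12.98-fold and A549 7.39-fold above SBC-3. The labels do not say whether the 3 arrays of A549 or of SBC-3 had a control culture each or shared 1 control RNA, so this spread may be technical.

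LOXL3, which has been linked to craniofacial collagen and, like LOXL2, to SNAI1, was highest in SBC-3 and next in EBC-1 at both of its probes. The brighter probe had a level of 1.75 in SBC-3, 1.01 in EBC-1, -0.15 in SK-MES-1 and -2.12 in A549, so that SBC-3 was 14.7-fold above A549. The dimmer probe read -1.62 in SBC-3 and -2.07 in EBC-1, whereas its green signal was not well above background in SK-MES-1 or A549, which have no order at this probe. LOXL4 had a green signal of 637 in SK-MES-1 and 96.5, 78.7 and 98.9 in A549, which gave levels of 1.11 and -1.78 and a 7.44-fold difference. In EBC-1 and SBC-3 the LOXL4 signal of 7.64 to 9.14 was not well above background, so these lines have no order, and A549 was at least 2.22-fold above the first and at least 2.57-fold above the second.

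**Figure D1:**
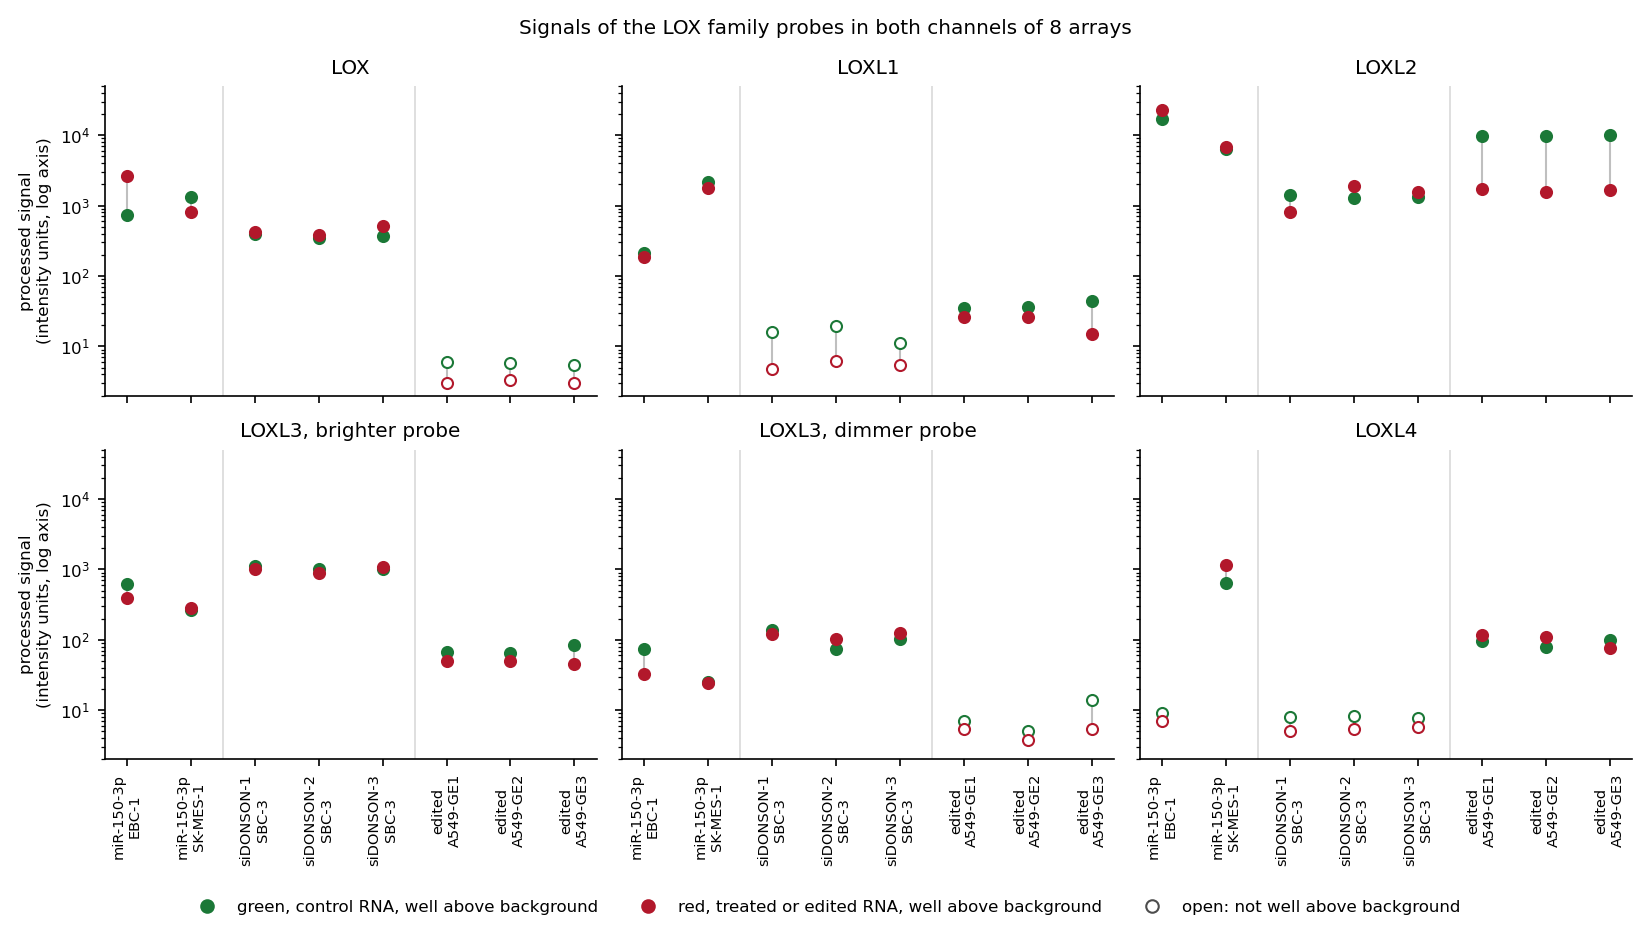
Processed signal (intensity units, log axis) of each family probe on the 8 arrays, with green points for the control RNA and red points for the treated or edited RNA, and open points where the signal was not well above background. In the 3 A549 lines LOXL2 lies between 9793 and 10140.4 in green and between 1541 and 1746 in red, and the LOX points there are open.

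Where at least 1 of 2 neighbouring lines was above background, their ranges did not overlap, but EBC-1 and SK-MES-1 had 1 array each and so no spread of their own. Between A549 and SBC-3, the lines with 3 arrays, the measured signals differed by more than 2-fold at 6 of 6 family probes, while those of 40.1% of all 28891 probes detected in either line did. LOXL1 was undetected in SBC-3 and has only the bound of 1.14-fold, so 5 of the 6 probes passed 2-fold when undetected signals were set at their bound. No test was made, because the controls of a line may be 1 RNA. With a normal-exponential background correction of the green channel in place of the software's, 3 of the 6 probes passed 2-fold, and LOXL1 turned from 1.34 higher to 0.18 lower in A549 on the log2 scale. As A549 minus SBC-3, LOXL2 then read 2.80, LOX -1.12, LOXL4 0.11, and LOXL3 -1.63 at its brighter and -0.56 at its dimmer probe. That correction adds an offset of 50, which narrows differences between low signals. No share over all probes was computed for it or for the bounds, so the 40.1% holds for the measured signals only.

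The edited A549 arrays addressed what accompanies reduced LOXL2 RNA and whether a paralogue rises in its place. LOXL2 itself was the check of the label, and it was strongly lower in all 3 edited lines. Its green to red signals were 9794 to 1746 in A549-GE1, 9793 to 1541 in A549-GE2 and 10140.4 to 1686 in A549-GE3. The edited lines thus kept 0.178, 0.157 and 0.166 of the control signal, and the groups did not overlap. The 10 spots of each array lay close together, with log2 ratios between -2.70 and -2.45 over the 3 arrays. The mean log2 ratio was -2.58 (SD 0.09, SE 0.23, n = 3, 95% CI -3.12 to -2.05), a 5.99-fold lower signal with a limma adjusted p of 0.0013. LOXL2 stood among the 69, 59 and 50 lowest ratios of 16054, 16078 and 16104 genes counted on the 3 arrays. The remaining red signal was still bright, at a level of 2.32 to 2.51 on the red scale. Whether that RNA encodes an intact enzyme is not a measurement of this array, and the position of the edit relative to the probe is not given in the sources used here.

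Of the 4 paralogues 3 could be tested in edited cells, and none of these passed the test in either direction. Of the whole family, 4 genes were tested and 1, LOXL2, was called. In the same fit 14.4% of 15531 genes were called (6.77% lower and 7.58% higher), so calls were common on these arrays. A different centring changed that balance: with each array centred on the median of all probes, which raised the median of all genes from 0.02 to 0.14, 765 genes were lower and 2345 higher.

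LOX, the founding member, was not well above background in either channel of any edited array. Its red signal was 3.05 to 3.31, against 5.50 to 6.08 in green, and no ratio was formed. LOXL4 was the paralogue with the highest mean. Its green to red signals were 96.5 to 117 in A549-GE1, 78.7 to 110.4 in A549-GE2 and 98.9 to 77.0 in A549-GE3, giving log2 ratios of 0.28, 0.49 and -0.36. It was therefore above the control in 2 lines and below it in 1, and the mean of 0.14 (SD 0.44, SE 0.19, 95% CI -0.37 to 0.64) had an adjusted p of 0.69. A rise of up to 0.64 on the log2 scale lies within this interval. LOXL4 was counted elsewhere only in SK-MES-1, so its own spread in the fit came from the edited arrays alone. Without A549-GE2 the mean was -0.04.

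LOXL1 and LOXL3 both read below the control in 3 of 3 edited lines, without passing the threshold. LOXL1 went from a green signal of 35.6 to a red signal of 26.5 in A549-GE1, from 36.7 to 25.8 in A549-GE2 and from 44.8 to 15.1 in A549-GE3. The log2 ratios were -0.42, -0.51 and -1.57, with an error of 0.38 to 0.44 each by the scanner software, so the third line carried most of the difference. Its mean was -0.84 (SD 0.64, SE 0.24, 95% CI -1.42 to -0.25, adjusted p = 0.0708), and without A549-GE3 it was -0.47 (adjusted p = 0.142). Counted probes of similar brightness, named or not, had median log2 ratios of 0.05, 0.05 and 0.09 on these arrays. When the low-signal filter was dropped or both channels had to be above background, the adjusted p of LOXL1 was 0.0433 and 0.0499.

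The brighter LOXL3 probe went from 67.1 to 50.04 in A549-GE1, from 65.6 to 50.4 in A549-GE2 and from 84.0 to 45.3 in A549-GE3. The log2 ratios were -0.42, -0.38 and -0.89, and the dimmer probe was not above background on any of these arrays. The mean was -0.56 (SD 0.28, SE 0.19, 95% CI -0.999 to -0.13, adjusted p = 0.0836). A549-GE3 again gave the lowest value, as it did for LOXL1 and LOXL4 but not for LOXL2. Under normal-exponential background correction the means shrank to -0.09 for LOXL1, -0.12 for LOXL3 and 0.02 for LOXL4, while LOXL2 stayed at -2.40. The offset of 50 in that correction shrinks ratios of signals this low in any case, so it cannot decide on these changes.

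**Figure D2:**
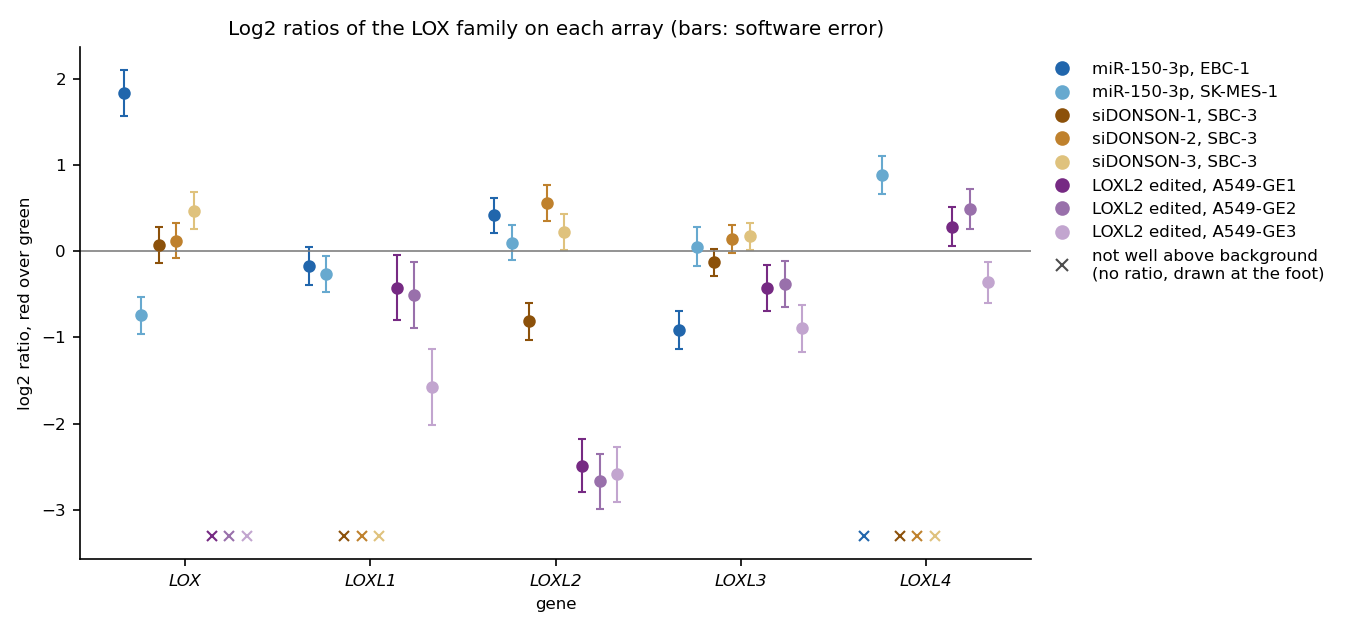
Log2 ratio of red over green for each family gene on each array, with bars for the scanner software's error of a ratio and crosses at the foot where the probe was not well above background. LOXL2 lies between -2.67 and -2.49 on the 3 edited A549 arrays, and the LOX points of the miR-150-3p arrays lie at 1.83 (EBC-1) and -0.74 (SK-MES-1).

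**Figure D3:**
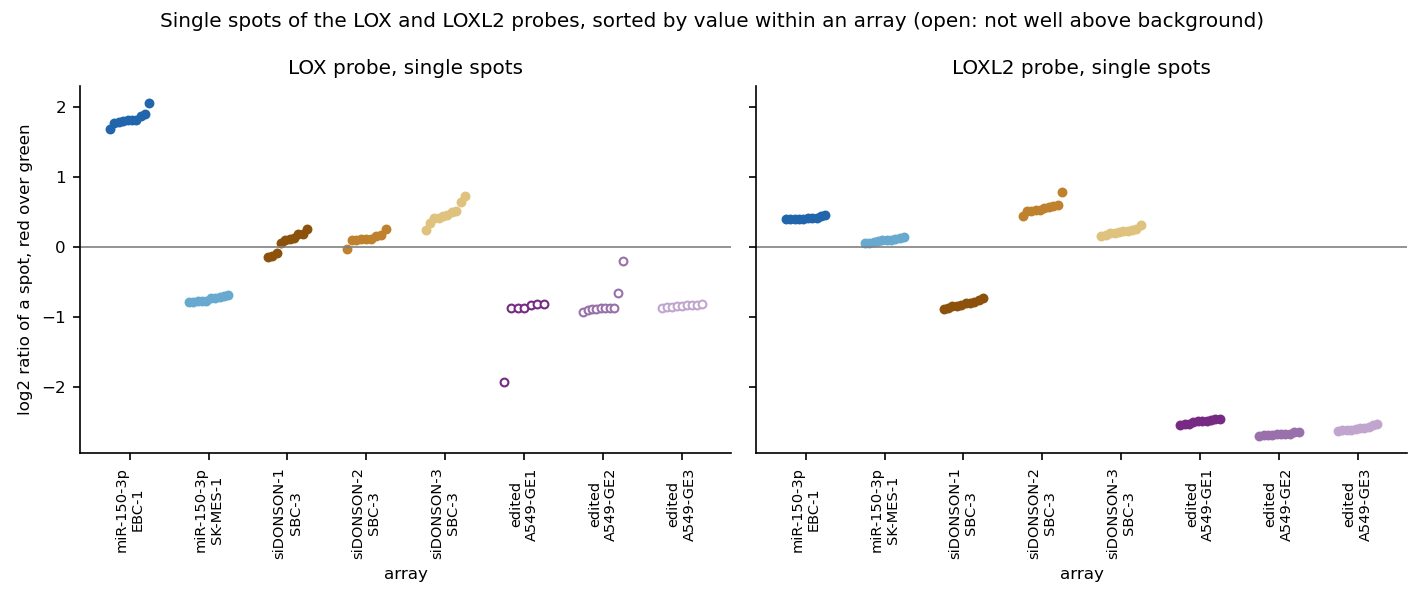
Log2 ratios of single spots of the LOX and LOXL2 probes on each array, sorted by value within an array, with open points where a spot was not well above background. The LOXL2 spots of siDONSON-1 lie between -0.89 and -0.73, below those of the other siRNAs, and the LOX spots of A549 are all open.

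The genes beside LOXL2 were read to see whether the decrease extended along the chromosome. Upstream and downstream in the gene table, R3HCC1 had a mean log2 ratio of -0.13 (adjusted p = 0.346), CHMP7 -0.31 (adjusted p = 0.141), the antisense gene LOXL2-AS1 -0.03 (adjusted p = 0.875) and ENTPD4 0.01 (adjusted p = 0.950). None of these 4 passed the test in edited A549 cells.

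MiR-150-3p was tested in both squamous lines with 1 array each, and the member that responded most, LOX, moved in opposite directions. In EBC-1 the LOX signal went from 734 in green to 2616 in red, a log2 ratio of 1.83 (3.56-fold, with an error of 0.27 by the scanner software), and its 10 spots lay between 1.69 and 2.06. On that array 1.32% of 14759 counted genes had a ratio as high or higher. In SK-MES-1 the LOX signal went from 1341 to 801, a log2 ratio of -0.74 (software error 0.22), with spots between -0.78 and -0.68. There 2.76% of 16175 genes had a ratio as low or lower. The spots of the 2 arrays were far apart, and the fit over both arrays gave 0.55 (SD 1.82, SE 0.55, 95% CI -0.82 to 1.91, adjusted p = 0.551). Markers of other cell types moved on the EBC-1 array too. Of 7 fibroblast markers 2 were counted, DCN at 4.55 (not above background in green) and PDGFRB at -0.39, and the summed signal of the list went from 149 to 367. Of the 5 counted endothelial and blood markers VWF (1.42, not above background in green) and CD14 (1.69) were above 1. PTPRC read 0.31, CD3E 0.36 and CDH5 -0.79. Of the 3 counted squamous markers KRT14 (1.77) and SOX2 (1.32) were above 1, and TP63 read 0.38. KRT14 and TP63 were not above background in green. AKR1B10 (1.39) was the 1 of 6 counted glandular markers above 1, and the 1 counted neuroendocrine marker, DLL3, read -0.76. On the SK-MES-1 array 0 of 4 counted fibroblast markers passed 1 either way, with a summed signal of 887 and 978. KRT14 (1.13, 1 of 4 counted squamous markers) and NCAM1 (1.07, 1 of 4 counted neuroendocrine markers) were above 1 there. The part of these markers in the LOX values was not tested. Each line had 1 array, so neither LOX value has a test of its own.

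The other members moved less. LOXL3 went from 622 to 395 at its brighter probe in EBC-1 and from 73.2 to 32.7 at its dimmer one, log2 ratios of -0.66 and -1.16 and a gene mean of -0.91. In SK-MES-1 the probes read 0.12 and -0.01, a mean of 0.05, and the fit over both lines gave -0.43 (SE 0.23, adjusted p = 0.246). LOXL2 went from 17150.1 to 22871 in EBC-1 (log2 ratio 0.42) and from 6441 to 6897 in SK-MES-1 (0.10), with a fitted mean of 0.26 (SE 0.28, adjusted p = 0.572). It was not lower in either line after transfection of this microRNA. LOXL1 read -0.17 and -0.26, with a fitted mean of -0.22 (SE 0.29, adjusted p = 0.651). LOXL4 was measured in SK-MES-1 only, where it went from 637 to 1173, a log2 ratio of 0.88 (software error 0.22) that 3.39% of genes reached or passed.

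Over both lines 0 of the 4 members tested were called in the limma fit, where 5.38% of 14228 genes were (2.91% lower and 2.47% higher). At an unadjusted p under 0.05 there were also 0 of 4, beside 4266 of the 14228 genes. Centring on the median of all probes gave 321 genes called lower and 1104 higher, and centring on counted probes gave 563 lower and 289 higher. On the EBC-1 array 1 of 4 counted members, LOX, had a log2 ratio above 1, and 0 were below -1, against 5.96% and 6.04% of all genes counted. On the SK-MES-1 array 0 of 5 were above 1 or below -1, against 2.57% and 1.27%.

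DONSON itself, the siRNA target, read -2.15, -1.79 and -2.11 on the 3 SBC-3 arrays (adjusted p = 0.0017), and no family member shifted with it by the test. LOXL2 was the member with the widest spread between the siRNAs. Its signal went from 1403 to 798 with siDONSON-1 (log2 ratio -0.81, error 0.22), from 1274 to 1882 with siDONSON-2 (0.56, error 0.21) and from 1330.0 to 1552 with siDONSON-3 (0.22, error 0.21). The 10 spots of the first array lay between -0.89 and -0.73, all below those of the other arrays, which lay between 0.15 and 0.79. The mean was -0.009 (SD 0.72, SE 0.23, 95% CI -0.54 to 0.52, adjusted p = 0.984), and without siDONSON-1 it was 0.39 (adjusted p = 0.147). This SE and interval use the spread of all groups, including the close edited arrays (SD 0.09), and not that of these siRNAs alone. No change shared by the 3 siRNAs was detected, and they differed in sign. The sign of the mean turned with the centring and the background correction.

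LOX read slightly above the control on the 3 SBC-3 arrays, at 399 to 418, 352 to 383 and 375 to 519.7, log2 ratios of 0.07, 0.12 and 0.47. The mean of 0.22 (SE 0.45, 95% CI -0.89 to 1.33) had an adjusted p of 0.799. LOX was not counted in A549, so its error came from these arrays and the opposed miR-150-3p ones. Without either miR-150-3p array the adjusted p of LOX was 0.279. LOXL3 read -0.13, 0.14 and 0.17 over its 2 probes, a mean of 0.06 (SE 0.19, adjusted p = 0.869). LOXL1 and LOXL4 were not well above background on any of these arrays. Thus 0 of 3 tested members were called by limma, and 0 of 3 had an unadjusted p under 0.05, which 3771 of 14453 genes had. Of all genes 7.22% were called (3.21% lower and 4.01% higher). With other centrings these calls split into 342 lower and 2087 higher (median of all probes) or 552 lower and 431 higher (counted probes).

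The genes that supply, process and receive these enzymes were followed as lists chosen for their roles. In edited A549 cells 10 of 56 tested list genes were called, or 17.9% beside 14.4% of all genes, and their directions were mixed. Each list is given beside the median over all genes of 0.02.

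Among the substrates, the fibrillar collagens and elastin, 7 of 12 genes could be tested, with a median of 0.26, and 1 was called higher. COL5A1, a collagen that sets fibril width, read 1.23, 1.33 and 1.34 on the 3 edited arrays, a mean of 1.30 (SE 0.11, adjusted p = 0.0010) and 2.47-fold. COL1A1, the main collagen of stiff matrix, read 0.82, 1.01 and 1.89 but did not pass (mean 1.24, adjusted p = 0.0775), nor did COL5A3, which read 0.82, 1.74 and 0.44 (adjusted p = 0.0779). Elastin (ELN) read 0.32, 0.47 and -0.05. The means of the other 3 tested collagens lay between -0.06 and 0.26, and none of these passed.

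Among the proteins that process pro-LOX or hold it in the matrix, 11 of 16 were tested (median 0.27), with 1 lower and 1 higher. FN1 encodes fibronectin, which binds LOX and BMP1, and it fell by 1.94, 1.98 and 1.20 on the log2 scale, a mean of -1.70 (SE 0.22, adjusted p = 0.0061) that became -0.67 under normal-exponential correction. FBN2, a microfibril protein, read 0.57, 0.71 and 0.71 (mean 0.66, adjusted p = 0.0205), a call lost when any 1 edited line was left out (adjusted p 0.102 to 0.138). BMP1, the proteinase that activates LOX, read 0.27 with an adjusted p of 0.127. Both calls in this list were matrix proteins.

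In collagen folding and hydroxylation, 15 of 16 genes were tested (median 0.16), 2 lower and 1 higher. TGM2, a transglutaminase that forms a different kind of matrix crosslink, read 1.73, 1.69 and 1.36, a mean of 1.59 (SE 0.16, adjusted p = 0.0019) and 3.01-fold. The prolyl 3-hydroxylases P3H2 and P3H3 were lower, with means of -0.45 (adjusted p = 0.0239) and -0.63 (adjusted p = 0.0488). The P3H2 call was lost when any 1 edited line was left out (adjusted p 0.0807 to 0.159) and with the other arrays subtracted (0.104). P3H3 was called under 9 of 16 alternative settings, and its 3 values of -0.88, -0.15 and -0.85 were uneven. The lysyl hydroxylases PLOD1, PLOD2 and PLOD3, which prepare the lysines that the LOX family oxidises, read 0.19, 0.25 and -0.07 and did not pass.

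None of the 12 copper supply genes was called (median 0.07). At an unadjusted p under 0.05 there were 2 of 12, beside 4817 of 15531 genes. Of 3 other copper amine oxidases only AOC3 was measured, at -0.29 (adjusted p = 0.624).

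The SNAI1 list had all 10 genes tested, a median of -0.32, and 2 calls in each direction. SNAI1 itself read 1.11, 1.28 and 1.12 (mean 1.17, SE 0.13, adjusted p = 0.0026). CDH1, the E-cadherin gene that SNAI1 represses, read 0.97, 1.61 and 1.51 (mean 1.36, SE 0.16, adjusted p = 0.0115), and its adjusted p reached 0.0769 when an edited line was left out. The tight junction genes OCLN and CLDN1 were lower in all 3 lines, with means of -1.33 (adjusted p = 0.0028) and -1.12 (adjusted p = 0.0035), and OCLN shrank to -0.30 under normal-exponential correction. ZEB2 (-1.01, adjusted p = 0.0536) and CDH2, the N-cadherin gene (-0.53, adjusted p = 0.0516), did not pass. The epithelial genes of this list thus moved apart, with CDH1 higher and OCLN and CLDN1 lower.

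**Figure D4:**
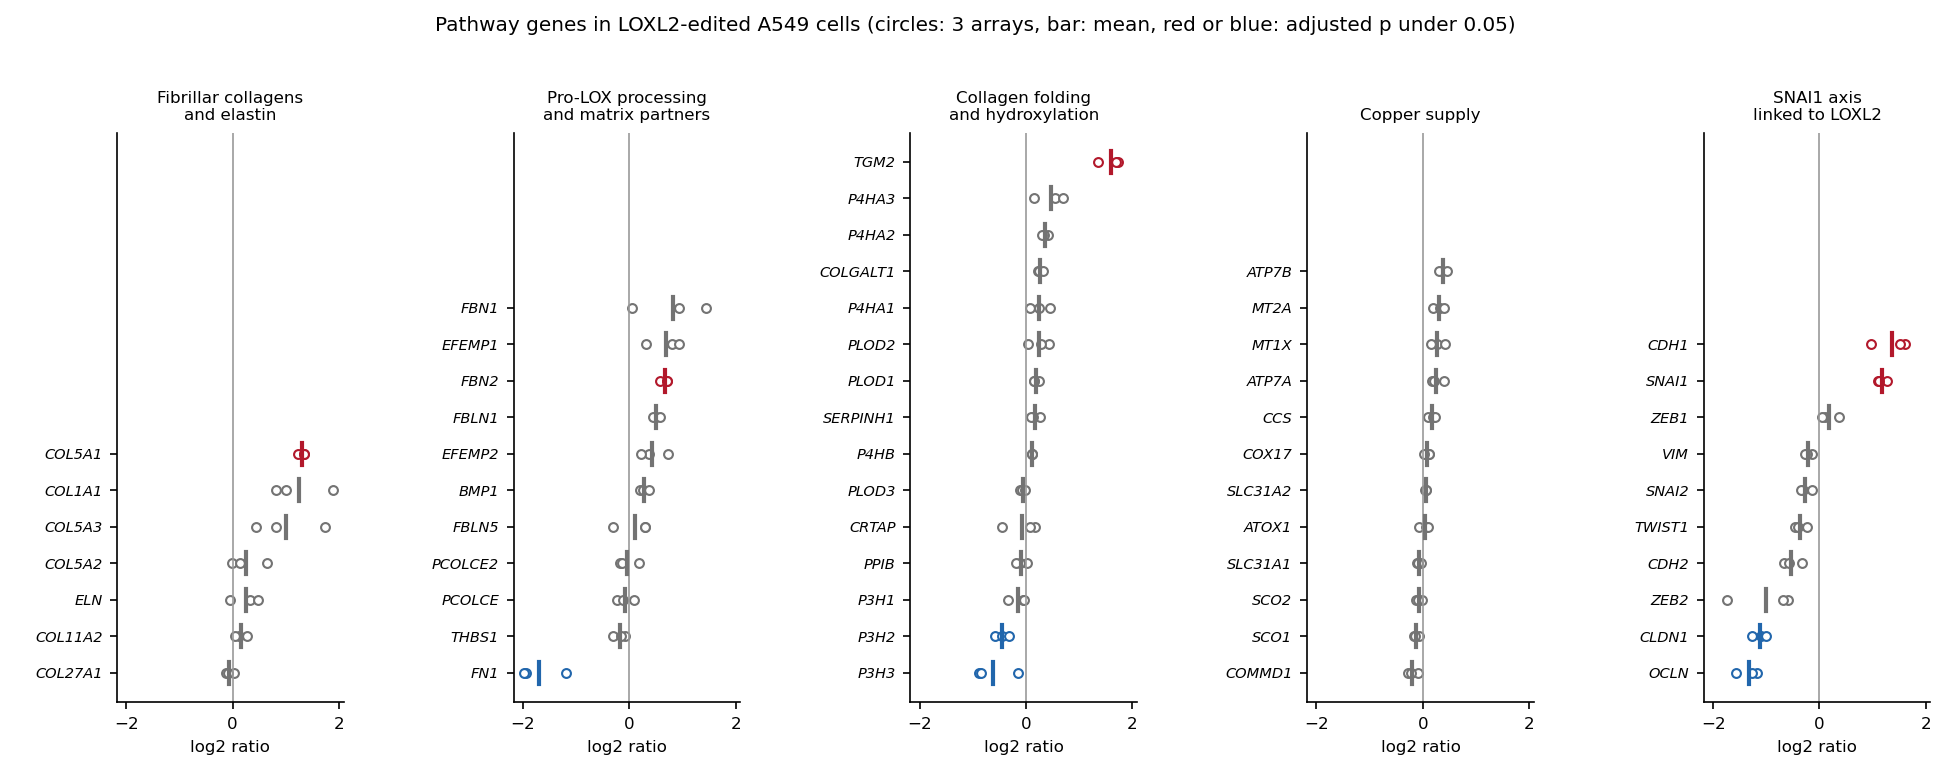
Log2 ratios of the tested pathway genes in LOXL2-edited A549 cells, 1 panel a list, with circles for the 3 arrays, a bar for the mean, red for genes called higher and blue for genes called lower at an adjusted p under 0.05. COL5A1, FBN2, TGM2, SNAI1 and CDH1 are red, and FN1, P3H2, P3H3, OCLN and CLDN1 are blue.

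The lists were read on the other arrays as well. With siDONSON 2 of 51 tested list genes were called (3.92%, beside 7.22% of all genes): PPIB (-0.66, adjusted p = 0.0138) and the copper importer SLC31A1 (-0.42, adjusted p = 0.038) were lower. Over both miR-150-3p arrays 3 of 45 were called (6.67%, beside 5.38%): BMP1 was higher (0.68, adjusted p = 0.0355), while TGM2 (-0.90, adjusted p = 0.0445) and COMMD1 (-0.58, adjusted p = 0.0328) were lower. On the EBC-1 array, where LOX was higher, THBS1 (1.45), EFEMP2 (1.14) and PLOD2 (1.29) had log2 ratios above 1, or 3 of 46 list genes (6.52%, beside 5.96%), and EFEMP2 read 0.58 under normal-exponential correction. On the SK-MES-1 array, where LOX was lower, COL1A1 (-1.06) and TGM2 (-1.21) were below -1, or 2 of 57 (3.51%, beside 1.27%), and under that correction both lay inside it at -0.97 and -0.86. COL1A1 read 0.23 in EBC-1, a small value from 1 array, so its direction in that line is not settled.

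LOXL2 and LOXL3 were the members counted on every array, and their levels over the 16 channels (8 green and 8 red) could be set against those of 12839 other genes. The genes whose levels ran most like LOXL2 were GPN1 (Pearson r = 0.951), NFKB2 (0.951) and CORO1C (0.945). Those most like LOXL3 were TRIT1 (0.992), MXD1 (0.988) and CRABP2 (0.987). The channels share 4 cell lines, so these coefficients mostly describe differences between lines, and they carry no test.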

How the data were processed

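Per the file headers, the authors scanned 8 two-colour 60K arrays and extracted them with Feature Extraction 12.1.1.1, which subtracted background and normalised the dyes to give the deposited processed intensity of each channel. Each array held Cy5-labelled treated and Cy3-labelled control RNA of 1 line, with no dye swap. The deposited log ratios are log10 of red over green. The table of the whole series repeats them with no difference, and they served only for this check, while the software's error of a ratio was rescaled to log2.

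Log2(red/green) was computed here from the processed intensities without further centring. Spots of a probe were averaged, control and marked spots left out, and a gene was the mean of its counted probes. Probes were named through transcript accessions. With limma 3.58.1 (R 4.3.3) the mean of each of 3 groups was tested against 0, for genes counted on all arrays of the group. The fit over the 8 arrays had 5 residual degrees of freedom, and fewer for a gene not counted on every array. Benjamini-Hochberg adjustment was made over all genes, with a threshold of 0.05. The fit was run on simulated data, for genes counted on all 8 arrays, with the same spread of a gene in every group. That run therefore does not test the sharing of the spread between groups. The number of arrays limits the precision.

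Alternatives were normal-exponential correction (offset 50, on median signals because mean signals are not in the files used here) with loess, other centrings, filters and probe rules, each group's own spread, subtraction of the other groups' arrays, and leaving out each array. Named were all members, called list genes in edited A549 (at most 4 a direction), list genes past a log2 ratio of 1 on a miR-150-3p array (at most 2), the 3 closest patterns and the nearest neighbours of LOXL2. The members, lists and tests were chosen with earlier results of these data known. Gene names come from RefSeq on GRCh38.p14, while the headers name hg19, so no probe coordinate is given.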

Additional observations from a re-analysis of the deposited data

Results flagged for a closer look

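After transfection of miR-150-3p, LOX read higher than the control in EBC-1 and lower in SK-MES-1, and the log2 ratios of the 2 lines differed by 2.58 (EBC-1 minus SK-MES-1). LOXL3 read lower in EBC-1 and slightly higher in SK-MES-1, a difference of -0.96, although its SK-MES-1 value of 0.05 was smaller than the scanner software's error of 0.22. Both drew attention because the lines moved in opposite directions, and with 1 array a line neither difference was tested.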

How the results depend on the processing

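The decrease of LOXL2 in edited A549 cells passed the limma threshold under all 17 alternatives, with means from -2.68 to -2.40 and adjusted p from 0.0003 to 0.0162. No other member kept a call across alternatives, and the cause of the changes below was not tested. In edited cells 2 members were called, the added one being LOXL1 without a low-signal filter (adjusted p = 0.0433) or with both channels above background (0.0499), and LOXL3 with the group's own spread (0.042). Leaving out 1 array gave 1 to 2 members, with LOXL3 added without either miR-150-3p array (adjusted p = 0.0287). LOXL4 turned to -0.039 without A549-GE2. With siDONSON 1 member was called without a filter (LOXL1, not above background) and 1 with the other arrays subtracted (LOXL2, 1.44, adjusted p = 0.0292, where the subtracted arrays include those edited at LOXL2), and leaving out 1 array gave 0 to 0. LOXL2 there was also 0.054 with normal-exponential correction, 0.13 with median centring and -0.30 (without siDONSON-2) to 0.39 (without siDONSON-1) with 1 array left out, and LOXL3 was -0.076 at its brighter probe. For miR-150-3p, leaving out an array of another group gave 0 members. Leaving out 1 of its own arrays left 1: LOX was 1.83 and LOXL3 -0.91 without SK-MES-1, and -0.74 and 0.055 without EBC-1. The A549 minus SBC-3 control level passed 2-fold at 3 of 6 probes with normal-exponential correction, where LOXL1 was -0.18, and by measured signals at 6 to 6 probes when 1 array was left out (LOXL1 is undetected in SBC-3 and has a bound of 1.14-fold only).

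Counts over all genes moved more. Of 766 genes for miR-150-3p, there were 1535 with normal-exponential correction, 1425 with median centring, 198 without a filter, 224 with other arrays subtracted, 0 with the group's own spread (1946 at an unadjusted p under 0.05) and 1 (without EBC-1) to 2972 (without SK-MES-1) with 1 array left out. Of 1043 for siDONSON, there were 2429 with median centring, 2897 without a filter, 1597 at the level of probes, 26 with its own spread and 97 (without siDONSON-3) to 1409 with 1 array left out. Of 2229 for edited A549, there were 5375 without a filter, 3619 at the level of probes, 5873 with its own spread, 820 with other arrays subtracted and 470 (without A549-GE2) to 2889 with 1 array left out. Pathway list calls in edited A549, 10 in the reported fit, were 19 with normal-exponential correction, 19 without a filter, 23 with its own spread, 4 with other arrays subtracted and 6 to 14 with 1 array left out. Subtraction of other arrays gave no value for LOX, LOXL1 and LOXL4, which were not counted on all 8 arrays, and the fit of probes gave none for LOXL3 or the lists. The 75th percentile over probes detected on all arrays and the centring on counted probes were added after the data were seen. No paired analysis was possible because every array already holds both RNAs of a pair and the 3 groups, which share replicate numbers, are of different lines and treatments and were not compared. Low signal limits LOXL1, LOXL3 and LOXL4 in A549.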

Other observations

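The antisense gene LOXL1-AS1, which was not part of the family as chosen, was read by 2 probes. The probe counted on all 8 arrays had green signals of 47.1 to 79.8, and its log2 ratios were 0.32, 0.04 and -0.40 in A549-GE1, A549-GE2 and A549-GE3, where the A549-GE3 value was the lowest, as it was for LOXL1. In EBC-1 and SK-MES-1 this probe read 0.08 and -0.05, while the other read -0.55 and 0.34, so the probes of this gene did not give the same sign. The other probe was not well above background in SBC-3 or A549.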
